A study of Saccharomyces cerevisiae with 26 samples.

Results

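The genes described here are the 40 nuclear genes of Saccharomyces cerevisiae that encode subunits of the mitochondrial respiratory chain and of ATP synthase. They were taken from a table of 6692 open reading frames by their systematic identifiers, and the set was chosen with earlier results of these data known. They comprise 4 genes of succinate dehydrogenase (SDH1 to SDH4), 9 of the cytochrome bc1 complex (COR1, QCR2, CYT1, RIP1 and QCR6 to QCR10), 2 of cytochrome c (CYC1 and CYC7), 9 of cytochrome oxidase (COX4, COX5A, COX5B, COX6 to COX9, COX12 and COX13), 3 of single-subunit NADH dehydrogenases (NDI1, NDE1 and NDE2) and 13 of ATP synthase. The first 4 of these groups, with 24 genes, form complexes or carriers that hold iron-sulfur (Fe-S) clusters or heme. The NADH dehydrogenases and ATP synthase, with 16 genes, hold neither. Messenger RNA was sequenced from 26 libraries in 8 groups, and the level of each gene was compared between strains and between media.

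Strains were haploids of the S288C background that share the alleles his3Δ1, leu2Δ0, met15Δ0 and ura3Δ0 and a restored HHT2 locus, which the WT carries as well. In H3A110C, both genes for histone H3 (HHT1 and HHT2) were edited where they lie, so that an alanine of the protein became a cysteine. gsh1Δ lacks GSH1, which encodes the first enzyme of glutathione synthesis, and in cup1F8* a stop codon was placed early in every copy of CUP1, which encodes the copper-binding metallothionein. The combined strains are H3A110Ccup1F8* and H3A110Cgsh1Δ. In SCEG, an oxidative medium in which ethanol and glycerol replace glucose, the groups were H3A110Ccup1F8* and cup1F8* with 4 libraries each, and H3A110Cgsh1Δ, gsh1Δ, H3A110C and WT with 3 libraries each. In SC, the fermentative medium with glucose, H3A110C and WT had 3 libraries each. SCEG itself contains no glutathione. Both strains with gsh1Δ depend on glutathione from outside for growth per the study, but whether and how much was given to the sequenced cultures is not stated in the sources used here, so the deletion and any supplement cannot be told apart. RNA came from 4 independent experiments per the study's methods, but the labels do not tie libraries to cultures, so the p-values measure the spread between these libraries, which may be partly technical.

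Electrons enter the yeast respiratory chain from succinate through succinate dehydrogenase, and from NADH through Ndi1 on the inner face and Nde1 and Nde2 on the outer face of the inner mitochondrial membrane. Unlike mammals, this yeast has no proton-pumping complex I. Ubiquinone carries the electrons to the bc1 complex, cytochrome c carries them on to cytochrome oxidase, and ATP synthase uses the proton gradient that the bc1 complex and cytochrome oxidase build. Fe-S clusters sit in Sdh2 and in Rip1, the Rieske protein. Heme b sits between Sdh3 and Sdh4, heme c1 in Cyt1 and heme c in the cytochromes c. The hemes and copper of cytochrome oxidase, and the b hemes of the bc1 complex, sit in subunits that the mitochondrial genome encodes, which are not among these genes. In glucose, yeast ferments and represses the respiratory genes, and during growth on ethanol or glycerol the CCAAT-binding Hap2/3/4/5 complex activates many of them. When iron is short, the RNA-binding protein Cth2, encoded by TIS11, binds AU-rich elements after the stop codon of mRNAs for iron-using proteins and promotes their decay.

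Because these elements bear on what the genes share, the letters TATTTATT, the core of the Cth2 element, were searched on the sense strand in the 300 bases after each stop codon of the R64 reference genome. They were present for 22 of the 40 genes (55%), against 7.749% of 5988 genes searched. All 4 succinate dehydrogenase genes, all 9 bc1 genes and both cytochrome c genes held at least one, as did 5 of 9 cytochrome oxidase genes, 1 of 13 ATP synthase genes (ATP20) and 1 of 3 NADH dehydrogenase genes (NDI1). Within 150 bases the count was 13 of 40 (32.5%), against 4.943% of all genes. No site lay inside another annotated gene. The stretches below are those of the Fe-S and heme subunits and of the lone genes of the other groups, 5′ to 3′, with the matched letters in capitals.
SDH2 (chrXII:52951-52978, minus strand): ctatgactatTATTTATTtatcattggc
SDH3 (chrXI:180344-180371, plus strand): ataccgcactTATTTATTctttaagatc
SDH4 (chrIV:818607-818634, plus strand): tatttactagTATTTATTtattattatt
RIP1 (chrV:108190-108207, plus strand): gatttggaccTATTTATT
CYT1 (chrXV:448561-448588, plus strand): tcggccacccTATTTATTttttcactgc
CYC1 (chrX:526777-526804, plus strand): tctaggtcccTATTTATTttttttaata
CYC7 (chrV:79599-79626, minus strand): tcggaggagaTATTTATTacttttatta
NDI1 (chrXIII:27979-28006, minus strand): tatctgtgatTATTTATTtcttcctctt
ATP20 (chrXVI:600317-600344, plus strand): atctcaattcTATTTATTttcttttcat
SDH4 and CYC7 held further copies (4 and 3 sites in all, the first of each shown), and SDH1 held 9 sites, most of them overlapping. A match is a description of the letters and not a shown binding site.

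Promoters were searched from 250 bases before to 50 after the start codon, on both strands. CCAAT, the core bound by the Hap complex, was present for 33 of 40 genes (82.5%), against 43.27% of all genes, and the longer form ACCAATNA, which contains it, for 16 of 40 (40%), against 5.728%. None of the 4 succinate dehydrogenase genes held the longer form, whereas 7 of 13 ATP synthase genes and 5 of 9 cytochrome oxidase genes did. ATTGTTC, the core bound by the repressor Rox1, was present for 7 of 40 (17.5%), against 7.682%, in 3 cytochrome oxidase and 4 ATP synthase genes. Stretches from one gene of each of 3 complexes are shown, with CCAAT or its reverse complement in capitals.
SDH2 (chrXII:54066-54106, minus strand): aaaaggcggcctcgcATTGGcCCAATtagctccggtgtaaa
COX8 (chrXII:910147-910181, minus strand): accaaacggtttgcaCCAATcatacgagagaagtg
ATP3 (chrII:315365-315399, plus strand): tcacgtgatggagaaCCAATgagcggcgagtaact
The CCAAT core was thus common to the complexes with and without Fe-S or heme, while the element after the stop codon was found mostly in the complexes with them.

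Library totals on genes ran from 2917138 to 12305863 counts, with the lowest totals in gsh1Δ and the highest in SC. All 40 genes had counts in every library, at least 6, and passed the filter on low counts in every comparison, and every stretch of 50 bases in them occurs once in the genome. GSH1 had 0 counts in all 6 libraries with gsh1Δ, which allows at most 3 counts per library, while no SCEG library, not even of WT, had a count for CUP1-1 or CUP1-2, which therefore check no strain label. In SC, library B was unlike the other 2 of its strain. Chi-square values averaged over genes were 104 and higher for pairs with it, but 9.93 for libraries A and C of WT, and smaller still for those of H3A110C. Library 2 of H3A110Cgsh1Δ gave 42.1 and 23.1 against the others, which gave 5.75 between them. The libraries with cup1F8* carry a sample numbering of their own in the labels and have higher totals than the other SCEG libraries, so library set and strain cannot be told apart where cup1F8* is compared with WT. Likewise, medium cannot be told apart from depth or from library set. The columns of SC and SCEG are named by different schemes. Every SC library had at least 211 counts for each of CUP1-1 and CUP1-2, against 0 in SCEG, and the reason for those zeros was not tested. In bulk RNA, fewer cells with a transcript and less transcript per cell cannot be told apart.

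Levels of different genes were compared as TPM, that is, counts divided by coding length and scaled to a common sum. The 40 genes together made up 5.61 ± 0.0452% of TPM in H3A110Ccup1F8* (SD, n = 4), 4.96 ± 0.348% in cup1F8* (n = 4), 4.18 ± 0.0583% in H3A110Cgsh1Δ, 3.61 ± 0.0317% in gsh1Δ, 5.45 ± 0.118% in H3A110C and 5.49 ± 0.238% in WT in SCEG, and 1.16 ± 0.331% in H3A110C and 1.09 ± 0.183% in WT in SC (n = 3 each). gsh1Δ had the lowest share of the SCEG groups, and its 3 libraries did not overlap those of any other SCEG group. Within WT in SCEG, ATP2, the catalytic β subunit of ATP synthase, was highest with 5536 ± 221 TPM, followed by ATP1, its α subunit, with 3055 ± 210.2 TPM (SD, n = 3). Most genes lay between these and ATP20, a subunit at the dimer interface, with 545 ± 14.5 TPM. The 3 genes below that were the minor isoforms NDE2 (19.1 ± 3.44 TPM), COX5B (18.9 ± 5.58 TPM) and CYC7 (16.7 ± 3.28 TPM), whose order is within their spread. In WT in SC, ATP2 and ATP1 again came first, with 1112 ± 171 and 607 ± 53.3 TPM, and the 4 succinate dehydrogenase genes lay between 84.3 ± 47.3 (SDH1) and 207 ± 40.03 TPM (SDH3), against 1435 ± 96.5 (SDH1) to 1877 ± 110.5 TPM (SDH3) in SCEG.

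**Figure D1:**
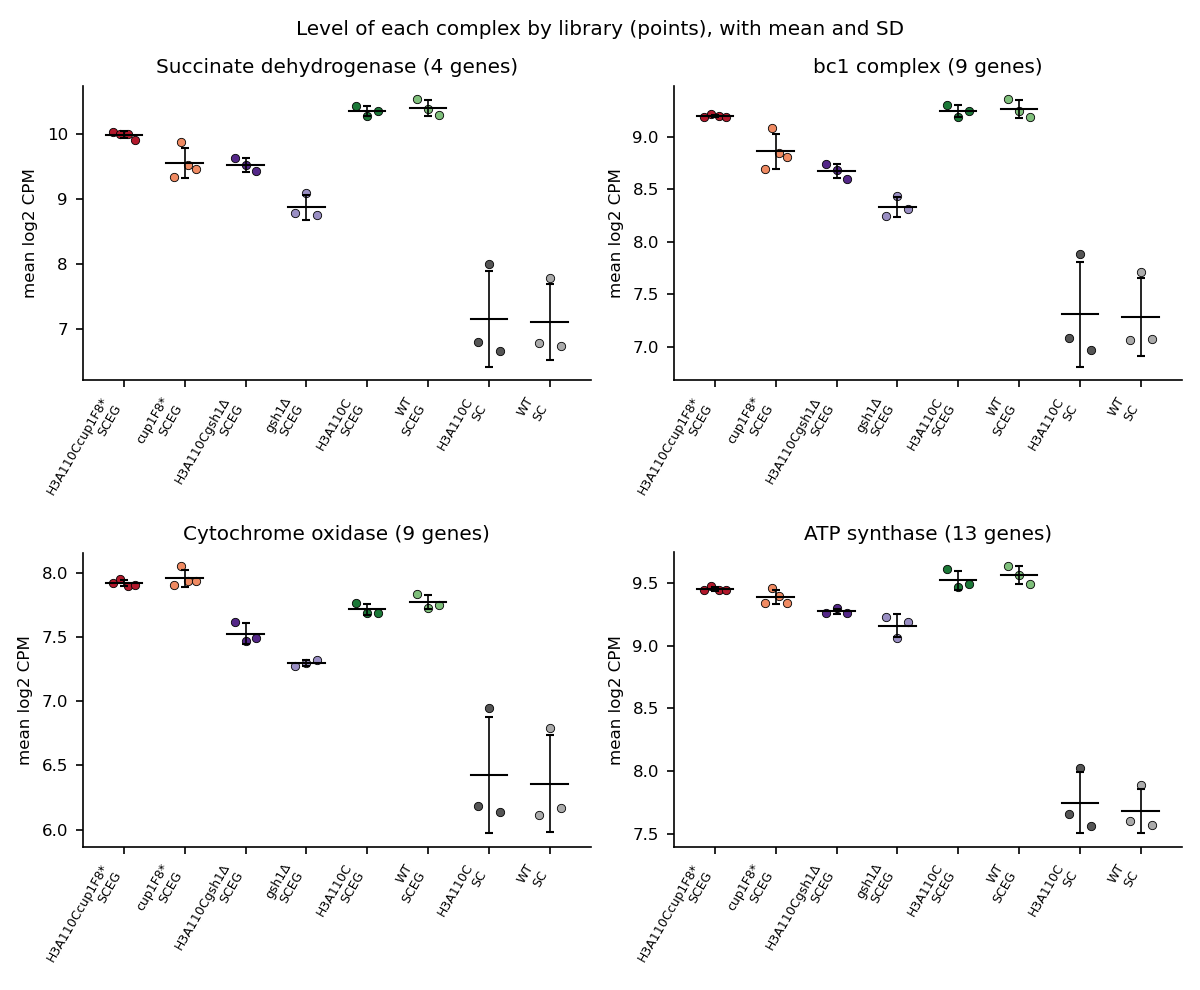
Mean log2 CPM over the genes of succinate dehydrogenase (4 genes), the bc1 complex (9), cytochrome oxidase (9) and ATP synthase (13) in each of the 26 libraries (points), with the mean and SD of each group (lines and bars). In SCEG the gsh1Δ libraries sit lowest in all 4 panels, at a mean of 8.88 for succinate dehydrogenase against 10.41 in WT, and in SC one library of each strain sits above the other 2.

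Growth in SCEG against SC separated nearly every gene in both strains. In H3A110C, 38 of the 40 genes were higher in SCEG and 1 lower at a Benjamini-Hochberg adjusted p below 0.05 in edgeR's quasi-likelihood test, where 23.8% of 5795 genes passed as higher and 23.4% as lower. In WT, 38 were higher and 1 lower, where 25.6% of 5816 genes were higher and 25.3% lower. The median log2 fold change of the 40 was 1.93 in H3A110C and 2.04 in WT, against 0.0148 and 0.00391 over all genes. With library B of SC left out, 38 and 39 genes were higher, and SDH1, the highest, had log2 fold changes of 4.45 (H3A110C) and 4.41 (WT).

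Succinate dehydrogenase rose most, with a median log2 fold change of 3.06 in H3A110C and 3.20 in WT. SDH1 (YKL148C), the flavoprotein, had 2788, 2531 and 2793 CPM (counts scaled to the same effective library total) in H3A110C in SCEG, against 137, 406 and 122 in SC, a log2 fold change of 3.67 ± 0.49 (SE). In WT it had 3017, 2584 and 2584 CPM in SCEG, against 134, 351 and 131 in SC, or 3.78 ± 0.42 (adjusted p = 0.000495). The middle value in SC is library B in both strains, and the media did not overlap with or without it. SDH2 (YLL041C), the Fe-S subunit, had 1187, 1103 and 1130.4 CPM in H3A110C in SCEG, against 75.6, 193 and 71.5 in SC. In WT it had 1234, 1125 and 1059 CPM in SCEG, against 83.2, 168 and 73.4 in SC, a log2 fold change of 3.45 ± 0.33 (adjusted p = 0.000267). The media lay apart for SDH2 in every library of both strains. The heme-binding anchor SDH3 had 1112, 988 and 1038 CPM in H3A110C in SCEG, against 139.8, 222 and 131 in SC, and 1180.0, 1129 and 1014 CPM in WT in SCEG, against 133, 198 and 133 in SC. Its partner SDH4 had 1026, 888 and 927 CPM in H3A110C in SCEG, against 106, 249 and 91.5 in SC, and 1121, 1009 and 903 CPM in WT in SCEG, against 101, 202 and 103 in SC. Their log2 fold changes were 2.74 ± 0.22 and 2.73 ± 0.39 in H3A110C, and 2.89 ± 0.19 and 2.96 ± 0.30 in WT.

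The 9 bc1 genes rose by 1.22 (QCR8) to 2.48 (CYT1) on the log2 scale in WT, with a median of 2.25, and the 13 ATP synthase genes by 1.497 (ATP17) to 2.26 (ATP20), with a median of 2.01. The Rieske protein gene RIP1 had 522, 478 and 503 CPM in H3A110C in SCEG, against 83.8, 169 and 78.3 in SC, and 577, 521 and 496 CPM in WT in SCEG, against 81.9, 148 and 89.2 in SC. CYT1, for cytochrome c1, had 966, 852 and 898 CPM in H3A110C in SCEG, against 136, 275 and 118 in SC, and 966, 892 and 875 CPM in WT in SCEG, against 129, 242 and 137 in SC. Neither gene overlapped between the media, and library B was the highest of the SC libraries for both. CYC1 (YJR048W), the major cytochrome c, had 559, 440.0 and 461 CPM in H3A110C in SCEG, against 66.5, 70.8 and 62.3 in SC, and 622, 510.2 and 392 CPM in WT in SCEG, against 70.5, 70 and 67.9 in SC. Its log2 fold changes were 2.93 ± 0.12 and 2.92 ± 0.18 (adjusted p = 1.17e-05 and 4.16e-05). Among cytochrome oxidase genes, 8 of 9 rose, and COX5B, the isoform of subunit 5 known from low oxygen, was the 1 gene that fell in either strain. It had 7.68, 9.07 and 7.23 CPM in H3A110C in SCEG, against 34.7, 128 and 42.4 in SC, a log2 fold change of -3.03 ± 0.56 (adjusted p = 0.00454). WT had 6.74, 7.58 and 11.2 CPM in SCEG and 31, 105 and 48.6 in SC, or -2.81 ± 0.50 (adjusted p = 0.00338). The remaining gene, CYC7, the minor cytochrome c, turned on library B: it had 6.28, 1.51 and 2.19 CPM in H3A110C in SCEG, against 1.98, 93.6 and 3.29 in SC, and 6.94, 5.53 and 4.46 CPM in WT in SCEG, against 2.8, 64.8 and 3.76 in SC. Its log2 fold change in WT was -1.99 ± 1.23 (adjusted p = 0.22), and 0.84 without library B (adjusted p = 0.0352).

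**Figure D2:**
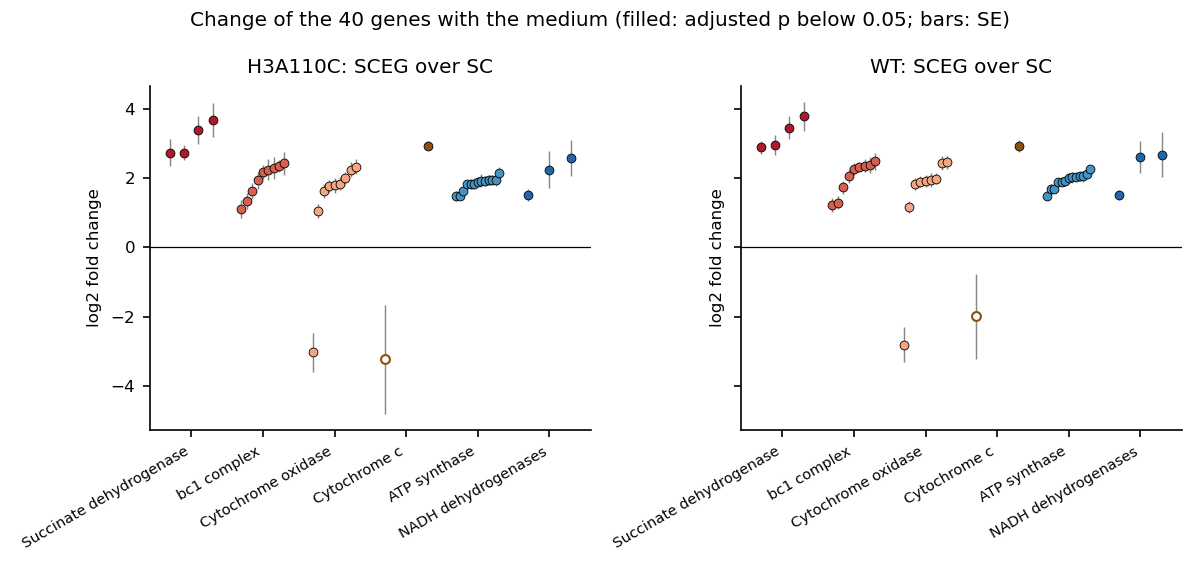
Log2 fold change of SCEG over SC for each of the 40 genes, grouped by complex, in H3A110C (left) and WT (right). Filled points passed an adjusted p below 0.05 and bars are standard errors. In each strain 38 genes lie above 0 and are filled, and the filled point below 0 is COX5B.

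Between H3A110C and WT no gene passed the test in either medium. In SC, 0 of 40 were higher and 0 lower in edgeR's quasi-likelihood test, where 0.0174% of 5737 genes were higher and 0% lower (with unadjusted p below 0.05, 12 and 12 genes), and DESeq2 likewise called 0 of the 40. In SCEG, 0 were higher and 0 lower, where 0.0176% of 5671 genes were higher and 0.0176% lower (146 and 194 at an unadjusted p below 0.05), and DESeq2 called 0. The median log2 fold change of the 40 was 0.08 in SC and -0.04 in SCEG, and the libraries of H3A110C and WT overlapped for all 40 genes in SC and for 39 in SCEG, where 97.4% and 89.5% of 6069 genes overlapped.

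The standard errors set what could be seen. In SCEG, SDH2 had a log2 fold change of 0.01 ± 0.08 with a 95% interval of -0.16 to 0.17, RIP1 of -0.08 ± 0.08 (-0.24 to 0.08) and ATP2 of -0.01 ± 0.11 (-0.22 to 0.20). In SC the standard errors were larger, 0.53 for SDH2 and 0.40 for RIP1, where library B of each strain was the highest. With both libraries B left out, an alternative chosen after seeing the data, 0 of 40 genes were called in SC and their log2 fold changes lay between -0.30 (CYC7) and 0.12 (COX7). NDE2, an external NADH dehydrogenase, was the gene whose libraries did not overlap in SCEG, with 23, 22.7 and 21.5 CPM in H3A110C, against 32.7, 35.6 and 24.6 in WT, a log2 fold change of -0.47 ± 0.17 (adjusted p = 0.699). The effect of H3A110C did not pass a test of a difference between media for any of the 40 (0 higher and 0 lower, where 0% and 0% of 5915 genes passed, with 50 and 62 at an unadjusted p below 0.05, and DESeq2 called 0 of the 40).

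Most of the genes were lower in gsh1Δ than in WT in SCEG, with the lowest medians in complexes that hold Fe-S or heme. Of the 40, 29 were lower and 1 higher in gsh1Δ than in WT in edgeR's quasi-likelihood test, where 12.8% of 5678 genes were lower and 12.5% higher. The median log2 fold change of the 40 was -0.54, against 0.0205 over all genes. All 4 succinate dehydrogenase genes and all 9 bc1 genes were lower, with medians of -1.51 and -0.91, as were 7 of 9 cytochrome oxidase genes (median -0.51), CYC1, 7 of 13 ATP synthase genes (median -0.36) and NDI1. In 34 of the 40 every gsh1Δ library lay below every WT library, which 20.8% of 6069 genes did.

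SDH2 had 338, 424 and 315 CPM in gsh1Δ, against 1234, 1125 and 1059 in WT, a log2 fold change of -1.65 ± 0.13 (adjusted p = 9.63e-06). Among the heme anchors, SDH3 (YKL141W) had 368, 452 and 344 CPM in gsh1Δ, against 1180.0, 1129 and 1014 in WT, or -1.50 ± 0.12 (adjusted p = 1.62e-05). SDH4 (YDR178W) had 368, 439 and 345 CPM in gsh1Δ and 1121, 1009 and 903 in WT, or -1.38 ± 0.12. The gsh1Δ and WT libraries lay far apart for each of them, and SDH1 fell as well, with 824, 1077 and 919.6 CPM in gsh1Δ, against 3017, 2584 and 2584 in WT (-1.52 ± 0.13).

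In the bc1 complex, RIP1 (YEL024W), the Rieske Fe-S protein, had 199, 241 and 225 CPM in gsh1Δ, against 577, 521 and 496 in WT, a log2 fold change of -1.25 ± 0.10 (adjusted p = 1.63e-05). CYT1 (YOR065W), which carries heme c1, had 346, 443 and 408 CPM in gsh1Δ and 966, 892 and 875 in WT, or -1.18 ± 0.11. The subunits of that complex without a cofactor ranged from -0.56 ± 0.09 (QCR10) to -1.14 ± 0.10 (COR1, a core protein), so the fall was shared by subunits that bind no metal. CYC1 had 166, 213 and 155 CPM in gsh1Δ, against 622, 510.2 and 392 in WT (-1.50 ± 0.17, adjusted p = 0.000164). Over the 7 subunits that themselves hold an Fe-S cluster or heme, 6 fell, with a median of -1.38, and over the other 33, 23 fell and 1 rose, with a median of -0.48.

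ATP synthase moved less. Its genes ranged from -0.13 ± 0.10 (ATP17, a subunit of the membrane part, adjusted p = 0.336) to -0.95 ± 0.13 (ATP20, adjusted p = 0.0005). ATP20 had 116, 79.4 and 93.2 CPM in gsh1Δ, against 195, 189 and 179 in WT. The catalytic subunits ATP1 and ATP2, with -0.36 ± 0.12 and -0.29 ± 0.13, did not pass the test (adjusted p = 0.059 and 0.131). The 3 NADH dehydrogenases went separate ways. NDI1 (YML120C), the internal enzyme, had 411, 526 and 459 CPM in gsh1Δ, against 1058, 885 and 852 in WT (-0.99 ± 0.12, adjusted p = 0.000302, but 0.0564 in 1 fit of all 26 libraries). NDE1, the major external enzyme, had 1881, 1665 and 1802 CPM in gsh1Δ and 1739, 1686 and 1709 in WT (0.07 ± 0.10, adjusted p = 0.651). NDE2 (YDL085W), the minor external enzyme, was the 1 gene that rose, with 75.6, 51.4 and 80 CPM in gsh1Δ, against 32.7, 35.6 and 24.6 in WT (1.15 ± 0.19, adjusted p = 0.00143). With each library left out in turn, between 26 and 29 of the 40 were lower in gsh1Δ.

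When H3A110C was added to gsh1Δ, no gene passed the test over all libraries. Every H3A110Cgsh1Δ library lay above every gsh1Δ library for all 4 succinate dehydrogenase genes and 7 of 9 bc1 genes, and the groups overlapped for QCR6 and QCR9. The 3 gsh1Δ libraries serve here as the reference and in the comparison with WT as the mutant, so both comparisons share them. In edgeR's quasi-likelihood test 0 of 40 were higher and 0 lower, where 0.264% of 5690 genes were higher and 0.58% lower (451 and 441 at an unadjusted p below 0.05). DESeq2 called 10 higher, namely SDH1 to SDH4, COR1, CYT1, RIP1, QCR7, COX6 and NDI1, and 1 lower, NDE2, among 100 and 110 genes in all. Without library 2 of H3A110Cgsh1Δ, which stood apart, edgeR called 13 higher, the same 10 with QCR8, COX8 and CYC7, and NDE2 lower, among 485 and 533 genes in all. The calls thus turned on that library and on the tool.

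SDH2 had 627, 559.6 and 536 CPM in H3A110Cgsh1Δ, against 338, 424 and 315 in gsh1Δ, a log2 fold change of 0.67 ± 0.14 (adjusted p = 0.0708). SDH3 had 617, 603 and 559.8 CPM in H3A110Cgsh1Δ, against 368, 452 and 344 in gsh1Δ, or 0.60 ± 0.13, and SDH4 had 669, 609 and 556 in H3A110Cgsh1Δ, against 368, 439 and 345 in gsh1Δ, or 0.66 ± 0.13. No library of H3A110Cgsh1Δ overlapped gsh1Δ for these genes, and none reached WT. RIP1 had 356, 312 and 318 CPM in H3A110Cgsh1Δ and 199, 241 and 225 in gsh1Δ (0.56 ± 0.11, adjusted p = 0.0708), and CYT1 had 658, 556 and 555 in H3A110Cgsh1Δ, against 346, 443 and 408 in gsh1Δ (0.56 ± 0.13). In 23 of the 40 genes every H3A110Cgsh1Δ library lay above every gsh1Δ library, which 10.6% of 6069 genes did. In 1, NDE2, all lay below, as in 10.6% of genes, with 35.3, 51.2 and 33.4 CPM in H3A110Cgsh1Δ, against 75.6, 51.4 and 80 in gsh1Δ (-0.78 ± 0.21). By group, median log2 fold changes were 0.64 for succinate dehydrogenase, 0.37 for bc1, 0.24 for cytochrome oxidase and 0.12 for ATP synthase, where the median of all genes was -0.000581. CYC1, with 204, 314 and 163 CPM in H3A110Cgsh1Δ and 166, 213 and 155 in gsh1Δ, overlapped, and its highest value was that of library 2.

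Succinate dehydrogenase, CYC1 and most bc1 genes were lower in cup1F8* than in WT, while cytochrome oxidase genes passed in both directions. Library set and strain cannot be told apart here. Of the 40 genes, 21 were lower and 6 higher in edgeR's quasi-likelihood test, where 34.8% of 5904 genes were lower and 34.3% higher, so the share lower was above that of all genes and the share higher below it. The median log2 fold change of the 40 was -0.19. With libraries scaled by total counts, which shifts the median of all genes by 0.16, 17 were lower and 11 higher. The shares of all genes given above belong to the main scaling, so these counts are not set against a share. All 4 succinate dehydrogenase genes (median -0.87) and 6 of 9 bc1 genes (median -0.64) were lower. Cytochrome oxidase had 2 genes lower (COX8 and COX9, neither with total counts) and 3 higher (COX5B, COX7 and COX13), and ATP synthase 6 lower and 1 higher. gsh1Δ and cup1F8* were compared with the same 3 WT libraries, so their values are not independent.

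CYC1 fell most, with 102, 158, 127 and 107 CPM in cup1F8*, against 622, 510.2 and 392 in WT, a log2 fold change of -2.08 ± 0.18 (adjusted p = 3.05e-06). CYC7 (YEL039C), by contrast, had 8.97, 14.3, 10.8 and 11 CPM in cup1F8*, against 6.94, 5.53 and 4.46 in WT, or 0.93 ± 0.22 (adjusted p = 0.0037). In 1 fit of all 26 libraries CYC1 passed and CYC7 did not (adjusted p = 0.462). SDH1 had 1179.5, 1626, 1384 and 1240.0 CPM in cup1F8* and 3017, 2584 and 2584 in WT (-1.05 ± 0.12, adjusted p = 2.19e-05). SDH4 had 454, 664, 489 and 517 in cup1F8*, against 1121, 1009 and 903 in WT (-0.97 ± 0.13), and SDH2 and SDH3 had log2 fold changes of -0.77 ± 0.14 and -0.76 ± 0.12. In each of these genes library 2 of cup1F8* was the highest of its group, and the groups did not overlap. RIP1 had 300.2, 408, 329 and 309.6 CPM in cup1F8* and 577, 521 and 496 in WT (-0.70 ± 0.11), and CYT1 had 424, 590.4, 494 and 478 in cup1F8*, against 966, 892 and 875 in WT (-0.92 ± 0.10). The 3 bc1 genes that did not pass were QCR8 (0.15 ± 0.09), QCR9 (-0.11 ± 0.07) and QCR10 (0.12 ± 0.08).

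Within ATP synthase the largest fall was that of TIM11, subunit e of the dimer interface, at -0.91 ± 0.07, followed by ATP15 and ATP18 at -0.60 ± 0.07 and -0.60 ± 0.06, while ATP20, subunit g of the same interface, rose by 0.28 ± 0.08. The catalytic ATP1 and ATP2 fell by 0.32 and 0.41. NDI1 had 473, 564, 485 and 490.4 CPM in cup1F8*, against 1058, 885 and 852 in WT (-0.93 ± 0.09, adjusted p = 9.97e-06). NDE1 (YMR145C) had 951, 949, 914 and 1084 CPM in cup1F8* and 1739, 1686 and 1709 in WT (-0.86 ± 0.07, adjusted p = 3.37e-06). NDE2 had 58.9, 50.6, 53.5 and 52.6 CPM in cup1F8* and 32.7, 35.6 and 24.6 in WT (0.74 ± 0.12, adjusted p = 0.000263), and COX5B 15.7, 14.5, 15.7 and 15.9 in cup1F8*, against 6.74, 7.58 and 11.2 in WT (0.84 ± 0.17, adjusted p = 0.00132). In 1 fit of all 26 libraries NDE2 and COX5B, like COX13, did not pass (adjusted p = 0.0669, 0.0975 and 0.0915), and 2 genes were higher and 18 lower, among 1961 and 1793 genes in all.

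Adding H3A110C to cup1F8* was accompanied by higher succinate dehydrogenase, bc1 and cytochrome c genes, within 1 library set. This comparison shares the cup1F8* libraries with that of cup1F8* against WT. Of the 40, 18 passed as higher and 3 as lower in edgeR's quasi-likelihood test of H3A110Ccup1F8* against cup1F8*, where 24.6% of 5906 genes were higher and 25.9% lower. All 4 succinate dehydrogenase genes rose (median 0.39), as did 8 of 9 bc1 genes (median 0.30, all but QCR9), both cytochromes c, NDI1, NDE1, ATP20 and TIM11. COX4, COX5B and ATP17 fell. No cytochrome oxidase gene rose. Fitted together with all 26 libraries, which share one estimate of spread, 5 genes were higher (SDH3, QCR2, CYC1, ATP20 and NDE1) and 0 lower, among 893 and 749 genes in all.

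CYC1 had 238, 233, 266 and 244 CPM in H3A110Ccup1F8*, against 102, 158, 127 and 107 in cup1F8*, a log2 fold change of 0.95 ± 0.11 (adjusted p = 3.13e-05). It stayed below WT, which had 622, 510.2 and 392 CPM. NDI1 had 819, 900.4, 946 and 974 CPM in H3A110Ccup1F8* and 473, 564, 485 and 490.4 in cup1F8* (0.82 ± 0.07, adjusted p = 2.15e-06). NDE1 had 1584, 1579.8, 1573 and 1697 in H3A110Ccup1F8*, against 951, 949, 914 and 1084 in cup1F8* (0.69 ± 0.06, adjusted p = 2.53e-06). For both of these NADH dehydrogenases the groups were far apart relative to their spread. NDE2 did not move, with 62.1, 55.1, 52.5 and 50.8 CPM in H3A110Ccup1F8*, against 58.9, 50.6, 53.5 and 52.6 in cup1F8*, and its groups overlapped. CYC7 had 17.7, 20.5, 19.3 and 16.6 CPM in H3A110Ccup1F8* and 8.97, 14.3, 10.8 and 11 in cup1F8* (0.68 ± 0.13), further above the 6.94, 5.53 and 4.46 CPM of WT.

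SDH1 had 2016, 1916, 1908 and 1884 CPM in H3A110Ccup1F8*, against 1179.5, 1626, 1384 and 1240.0 in cup1F8* (0.48 ± 0.09, adjusted p = 0.00077). SDH2 had 965, 944, 933 and 850.4 in H3A110Ccup1F8*, against 566, 887, 667 and 641 in cup1F8* (0.39 ± 0.11), and SDH3 had 924, 912, 929 and 871 in H3A110Ccup1F8*, against 580.3, 837, 670.0 and 617 in cup1F8* (0.39 ± 0.09). The groups did not overlap for SDH1 and SDH3, and overlapped for SDH2 and SDH4 through library 2 of cup1F8*. RIP1 had 461, 486, 460.3 and 458 CPM in H3A110Ccup1F8* and 300.2, 408, 329 and 309.6 in cup1F8* (0.44 ± 0.08, adjusted p = 0.000977), and CYT1 had 725, 692, 667 and 663 in H3A110Ccup1F8*, against 424, 590.4, 494 and 478 in cup1F8* (0.44 ± 0.08). Each of the 7 subunits with an Fe-S cluster or heme rose, with a median of 0.44. COX4, the zinc-binding subunit of cytochrome oxidase, had 457, 473, 428 and 431 CPM in H3A110Ccup1F8* and 495, 579, 511 and 536 in cup1F8* (-0.28 ± 0.06, adjusted p = 0.0019). ATP17 had 289.9, 282, 253 and 271 in H3A110Ccup1F8*, against 299, 297, 296 and 283 in cup1F8* (-0.13 ± 0.05, adjusted p = 0.044), a difference near the limit of the test in which the groups overlapped. COX5B had 13.3, 14.3, 12.7 and 13.1 CPM in H3A110Ccup1F8*, against 15.7, 14.5, 15.7 and 15.9 in cup1F8* (-0.24 ± 0.09, adjusted p = 0.0346).

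Whether the effect of H3A110C differed from its effect in WT was tested by an interaction term. In the cup1F8* background it was larger for 9 of the 40 genes and smaller for 0, where 8.36% of 5954 genes were higher and 7.79% lower. The 9 were SDH1, SDH3, CYT1, RIP1, QCR6, CYC1, CYC7, NDI1 and NDE1, with differences of 0.45 to 1.45 on the log2 scale. The largest was that of CYC7, whose log2 fold change was 0.68 in the cup1F8* background and -0.76 in H3A110C against WT. In H3A110C in SCEG it had only 6.28, 1.51 and 2.19 CPM. CYC1 had a difference of 1.02 ± 0.21 (adjusted p = 0.00444), NDI1 of 0.78 ± 0.13 (adjusted p = 0.001) and NDE1 of 0.68 ± 0.10 (adjusted p = 0.000449). No ATP synthase or cytochrome oxidase gene passed. The number passing as higher was 18 without library 2 of cup1F8* (among 544 genes in all), 4 without library 1 of WT (among 398) and 4 without library 2 of H3A110C (among 383). In 1 fit of all 26 libraries it was 2, CYC1 and NDE1, among 198 genes in all. In the gsh1Δ background 0 of 40 passed in either direction in edgeR, where 0.226% of 5751 genes were higher and 0.139% lower (428 and 376 at an unadjusted p below 0.05). DESeq2 called 9 higher, among 75 genes in all, and edgeR without library 2 of H3A110Cgsh1Δ called 7, among 150. The median difference of the succinate dehydrogenase genes was 0.68 in the gsh1Δ background (adjusted p in edgeR from 0.0752 to 0.112), against 0.44 in the cup1F8* background. The counts of genes passing thus do not show a smaller effect in the gsh1Δ background.

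Yeast encodes cytochrome c, cytochrome oxidase subunit 5 and the external NADH dehydrogenase each as a major and a minor isoform, and the ratio within a pair was read inside each library as a difference of log2 CPM. COX5A exceeded COX5B by 5.55 ± 0.13 in H3A110Ccup1F8*, 5.28 ± 0.16 in cup1F8*, 5.60 ± 0.64 in H3A110Cgsh1Δ, 5.60 ± 0.14 in gsh1Δ, 6.23 ± 0.14 in H3A110C and 6.15 ± 0.46 in WT in SCEG, and by 1.46 ± 0.70 in H3A110C and 1.54 ± 0.62 in WT in SC (SD over libraries). The pair was closer in SC, where COX5B was higher and COX5A lower. COX5A (YNL052W) itself had 649, 606 and 572 CPM in WT in SCEG, against 137, 196 and 145 in SC.

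CYC1 exceeded CYC7 by 3.71 ± 0.16 in H3A110Ccup1F8*, 3.42 ± 0.12 in cup1F8*, 4.50 ± 1.14 in H3A110Cgsh1Δ, 5.25 ± 0.60 in gsh1Δ, 7.30 ± 0.79 in H3A110C and 6.42 ± 0.04 in WT in SCEG. In SC the difference was 2.87 ± 2.86 in H3A110C and 2.91 ± 2.43 in WT, where library B of each strain had CYC7 near or above CYC1. NDE1 exceeded NDE2 by 4.86 ± 0.16 in H3A110Ccup1F8*, 4.17 ± 0.15 in cup1F8*, 5.44 ± 0.42 in H3A110Cgsh1Δ, 4.71 ± 0.27 in gsh1Δ, 6.25 ± 0.11 in H3A110C and 5.79 ± 0.28 in WT in SCEG. By group mean, all 3 pairs were thus closest in cup1F8* among the SCEG groups. Against groups outside the cup1F8* strains, library set and strain cannot be told apart in this ranking. Single libraries overlapped for COX5A and COX5B, where library 1 of H3A110Cgsh1Δ had 4.94, below every cup1F8* library. They also overlapped for CYC1 and CYC7, where library 2 of H3A110Ccup1F8* had 3.49. These values are descriptions with no test.

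**Figure D3:**
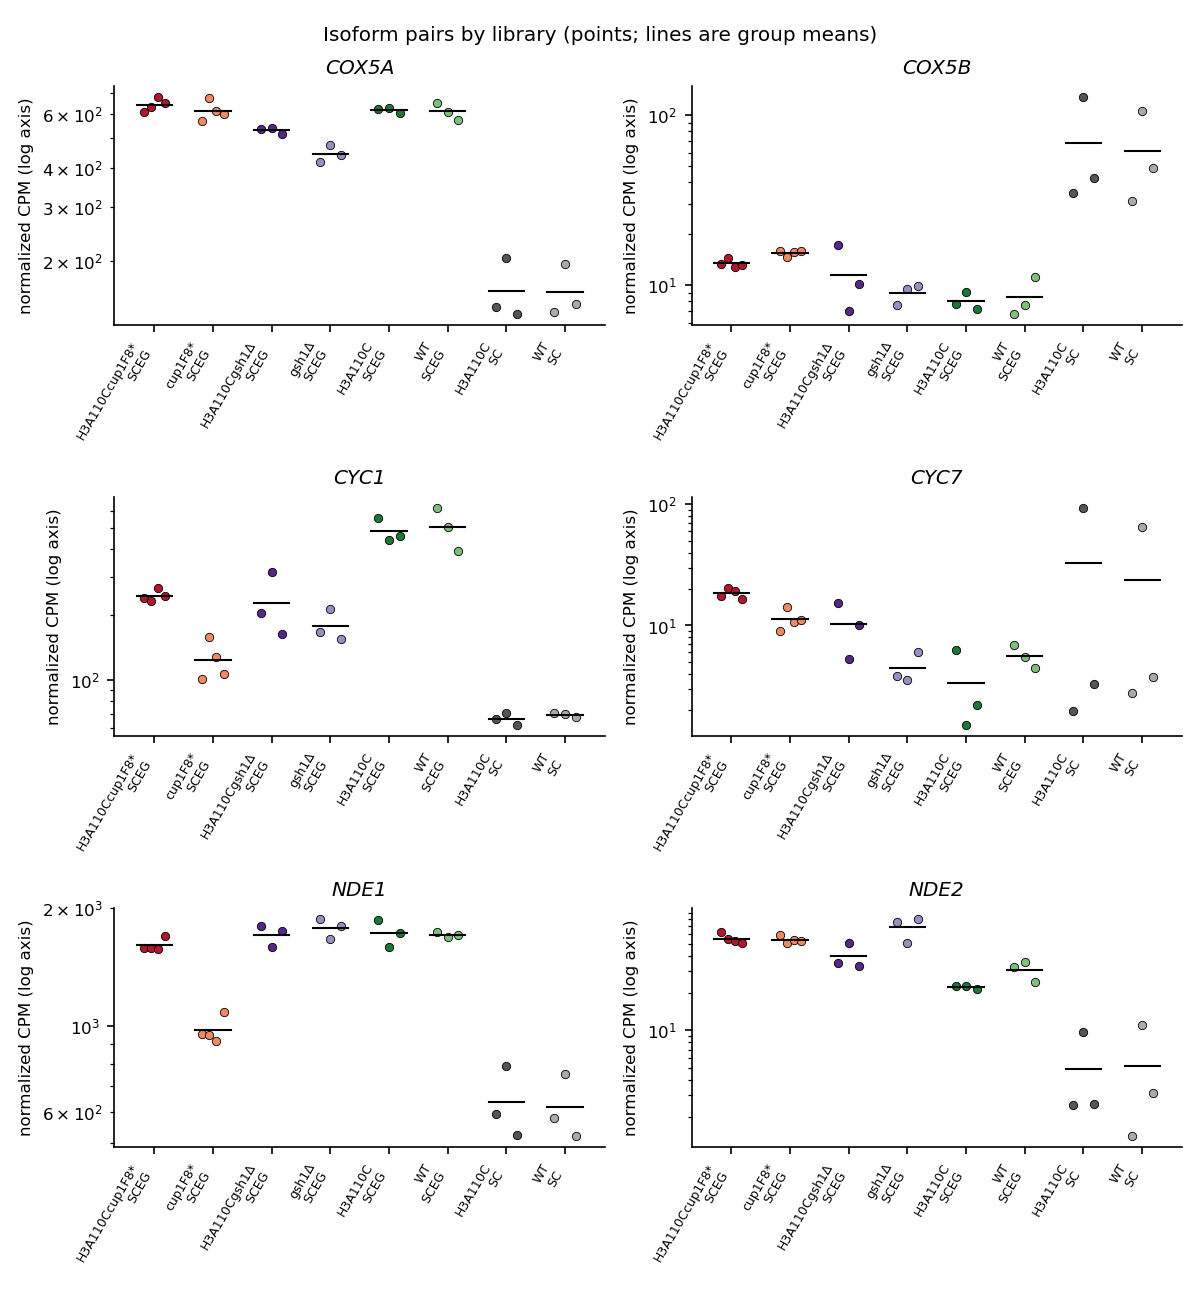
Normalized CPM of the isoform pairs COX5A and COX5B, CYC1 and CYC7, and NDE1 and NDE2 in each library (points), on a log axis, by group. In WT in SC, COX5B lies between 31 and 105 CPM, against 6.74 to 11.2 CPM in WT in SCEG, and CYC7 reaches 64.8 CPM in library B of WT in SC and 93.6 CPM in library B of H3A110C.

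Complexes with and without Fe-S or heme were then set against each other inside each library, as the mean log2 CPM of the 24 genes minus that of the 16. The difference was -0.73 ± 0.02 in H3A110Ccup1F8*, -0.83 ± 0.10 in cup1F8*, -1.002 ± 0.09 in H3A110Cgsh1Δ, -1.31 ± 0.16 in gsh1Δ, -0.78 ± 0.02 in H3A110C and -0.77 ± 0.03 in WT in SCEG, and -0.72 ± 0.26 in H3A110C and -0.70 ± 0.18 in WT in SC (SD over libraries). Every gsh1Δ library, from -1.44 to -1.13, lay below every other library of the series, and the H3A110Cgsh1Δ libraries, from -1.06 to -0.89, lay between gsh1Δ and WT. The change of medium, although it moved nearly all genes, left this mean difference within the spread of the SC libraries, which library B widened. The mean joins complexes that moved in opposite directions relative to ATP synthase. In WT, succinate dehydrogenase minus ATP synthase was -0.58 in SC and 0.85 in SCEG. Cytochrome oxidase minus ATP synthase was -1.33 in SC and -1.80 in SCEG.

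Single complexes were set against ATP synthase in the same way. Succinate dehydrogenase exceeded ATP synthase by 0.54 ± 0.05 log2 CPM in H3A110Ccup1F8*, 0.17 ± 0.18 in cup1F8*, 0.26 ± 0.11 in H3A110Cgsh1Δ, 0.84 ± 0.03 in H3A110C and 0.85 ± 0.05 in WT in SCEG, and lay below it in gsh1Δ (-0.28 ± 0.28) and, in SC, in H3A110C (-0.59 ± 0.50) and WT (-0.58 ± 0.41). For bc1 minus ATP synthase the values were -0.25 ± 0.01 in H3A110Ccup1F8*, -0.52 ± 0.11 in cup1F8*, -0.60 ± 0.07 in H3A110Cgsh1Δ, -0.82 ± 0.18 in gsh1Δ, -0.28 ± 0.03 in H3A110C and -0.30 ± 0.02 in WT in SCEG. Of the SCEG groups gsh1Δ was lowest. Cytochrome oxidase minus ATP synthase was -1.86 ± 0.10 in gsh1Δ and -1.80 ± 0.04 in WT, a difference within the spread. In the cup1F8* strains it was -1.53 ± 0.01 in H3A110Ccup1F8* and -1.43 ± 0.02 in cup1F8*. Relative to ATP synthase, cytochrome oxidase was highest in cup1F8* among the SCEG groups, but library set and strain cannot be told apart against groups outside the cup1F8* strains.

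The genes were also divided by the TATTTATT element after the stop codon. In gsh1Δ against WT, the 22 genes with it had a median log2 fold change of -0.95, with 21 lower, and the 18 without it -0.33, with 8 lower. Over all genes tested those with the element had a median of -0.18, with 33.7% lower, and those without it 0.03, with 11.2% lower. In H3A110Cgsh1Δ against gsh1Δ the medians were 0.39 with and 0.11 without. In cup1F8* against WT they were -0.56 with (14 lower and 2 higher) and -0.10 without (7 lower and 4 higher), where 42.3% of all genes with the element and 35.3% of those without it were lower, and 33.2% and 34.2% higher. In H3A110Ccup1F8* against cup1F8* they were 0.30 with (16 higher and 0 lower) and -0.02 without (2 higher and 3 lower), where 34.5% of all genes with the element and 24.5% of those without it were higher. Within 150 bases, 13 genes held the element and 27 did not. Medians were then -0.85 with and -0.44 without in gsh1Δ against WT, but -0.20 and -0.18 in cup1F8* against WT. They were 0.37 and 0.16 in H3A110Cgsh1Δ against gsh1Δ, and 0.27 and 0.03 in H3A110Ccup1F8* against cup1F8*. The split in cup1F8* against WT thus depended on the window. The element overlaps the grouping by complex, since 20 of the 22 genes with it in 300 bases belong to complexes with Fe-S or heme. Inside ATP synthase ATP20 had it and 12 genes did not, and inside cytochrome oxidase 5 of 9 had it.

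**Figure D4:**
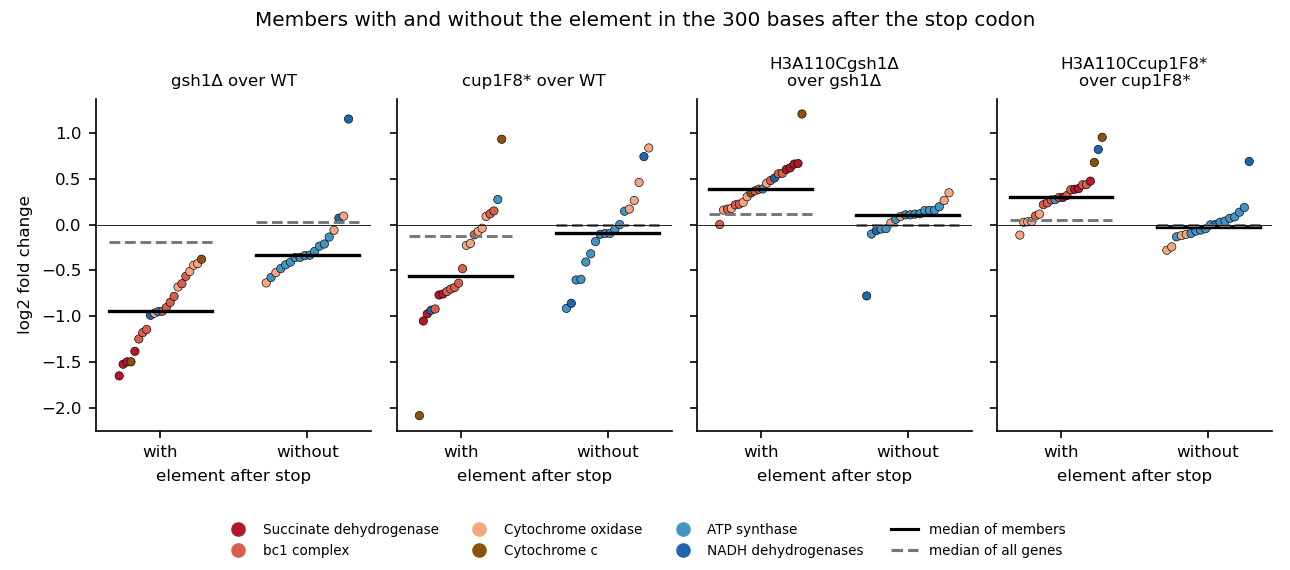
Log2 fold change of the 22 genes with TATTTATT in the 300 bases after the stop codon and the 18 without it, in 4 comparisons between strains in SCEG. Points are coloured by complex, solid lines are medians of these genes and dashed lines those of all genes with or without the element. In gsh1Δ over WT the medians are -0.95 with the element and -0.33 without, and in H3A110Ccup1F8* over cup1F8* 0.30 and -0.02.

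The transcript for the protein known to bind this element, TIS11, moved widely in the same libraries. It had 742, 677 and 639 CPM in gsh1Δ, against 27.4, 10.4 and 9.92 in WT, a log2 fold change of 5.42 ± 0.30 (adjusted p = 7.71e-07). cup1F8* had 317, 150.2, 245 and 312 CPM, or 3.93 ± 0.37 over the same WT libraries (adjusted p = 6.94e-06). TIS11 had 121, 124, 98.4 and 99.7 CPM in H3A110Ccup1F8*, against 317, 150.2, 245 and 312 in cup1F8* (-1.24 ± 0.19, adjusted p = 0.000189), and 457, 444 and 503 CPM in H3A110Cgsh1Δ, against 742, 677 and 639 in gsh1Δ (-0.56 ± 0.11), which did not pass (adjusted p = 0.063). In cup1F8* library 2, which was highest in succinate dehydrogenase, had the lowest TIS11. The same match was seen in H3A110C in SCEG, where TIS11 was low (4.42, 9.83 and 9.64 CPM). It was not seen in WT in SCEG, gsh1Δ, H3A110Cgsh1Δ or H3A110Ccup1F8*. In gsh1Δ, library 3 had both the lowest TIS11 and the lowest mean log2 CPM of succinate dehydrogenase (8.752). The part of TIS11 in the levels of these genes was not tested.

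Of 15 listed regulators, 6 were higher and 2 lower in gsh1Δ than in WT, where 12.5% of all genes were higher and 12.8% lower. HAP4, the activating subunit of the Hap complex, had 673, 731 and 633 CPM in gsh1Δ, against 956, 876 and 767 in WT (-0.34 ± 0.11, adjusted p = 0.0464). It was -0.43 ± 0.10 in cup1F8* over WT, and 1.59 ± 0.14 in WT in SCEG over SC (adjusted p = 0.000186). The other Hap subunits went separate ways in cup1F8*. HAP3 had 18.3, 19, 17.6 and 20.4 CPM in cup1F8*, against 40.7, 45.1 and 33 in WT in SCEG. HAP2 had 73, 76.6, 72.8 and 84.5 CPM in cup1F8*, against 55.7, 41 and 57 in WT in SCEG, and HAP5 overlapped. The HAP1 transcript had 358, 322 and 378 CPM in H3A110Cgsh1Δ, against 708, 603 and 698 in gsh1Δ (-0.93 ± 0.11, adjusted p = 0.0117), while WT in SCEG had 491, 427 and 450. In H3A110Ccup1F8* it was -0.59 ± 0.08 relative to cup1F8* (adjusted p = 6.21e-05). ROX1, the heme-induced repressor of hypoxic genes, had 431, 443 and 321 CPM in WT in SCEG, against 106, 98.3 and 125 in SC, and 212, 217, 182 and 237 CPM in cup1F8*, lower than in WT (-0.96 ± 0.12, adjusted p = 4.63e-05). It was higher in gsh1Δ than in WT, with 774, 656 and 696 CPM in gsh1Δ (0.84 ± 0.13, adjusted p = 0.00103), and lower in H3A110Cgsh1Δ than in gsh1Δ, with 362, 437 and 296 CPM in H3A110Cgsh1Δ (-0.96 ± 0.15, adjusted p = 0.0294). The part of these regulators was not tested either.

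Genes that build or assist the same complexes were counted as lists. In gsh1Δ against WT, 5 of 8 assembly factors of the bc1 complex and cytochrome c were lower and 0 higher (median -0.62), 5 of 7 of ATP synthase (median -0.48), 12 of 29 of cytochrome oxidase (median -0.40), and 0 of 4 of succinate dehydrogenase (median -0.21), where 12.8% of all genes were lower. Of 13 genes tested of ubiquinone synthesis and of the carriers that bring ADP and phosphate to ATP synthase, 6 were lower (median -0.25). In H3A110Ccup1F8* against cup1F8*, 6 of 8 bc1 and cytochrome c factors were higher and 2 lower (median 0.24). Of 7 ATP synthase factors, 4 were higher and 1 lower (median 0.24). In the same comparison 14 of 29 cytochrome oxidase factors were higher and 3 lower, and 1 of 4 succinate dehydrogenase factors was higher and 1 lower. Of all genes, 24.6% were higher and 25.9% lower there. In SCEG against SC in WT, 17 of 29 cytochrome oxidase factors were higher, where 25.6% of all genes were, with a median of 0.63, against 1.92 for the subunits themselves. The 4 succinate dehydrogenase factors had a median of 1.27 in that comparison. Of 10 further subunits and isoforms of the complexes, such as ATP19 and COX26, 6 were higher in SCEG in WT, 5 were lower in gsh1Δ than in WT, and H3A110Ccup1F8* had 4 of them higher and 2 lower relative to cup1F8*, to be read against the same shares of all genes.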

How the data were processed

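Poly(A) RNA was sequenced as stranded libraries. The authors aligned reads to R64-1-1 (sacCer3) with HISAT2 and deposited raw counts per open reading frame from featureCounts, in versions not given in the sources used here. A deposited table of DESeq2-normalized values was not used. SC columns name the strain and medium and carry letters A to C that match no label, so they were assigned to groups only. The 40 genes and all gene lists were chosen with earlier results of these data known.

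Each pair of groups was fitted alone in edgeR 4.0.16 (R 4.3.3) with TMM scaling, filterByExpr and its quasi-likelihood test. P-values were adjusted by Benjamini-Hochberg across every gene tested, and called at 0.05. Interactions used the 4 groups concerned. CPM used TMM scaling over 26 libraries, and log2 CPM a prior count of 2. Named were the Fe-S and heme subunits, the isoform pairs and, per comparison, the 3 called genes with the largest rise and the 3 with the largest fall. Replicate pairs differed beyond sampling noise. In SC, equal letters deviated together (correlation at least 0.623), but so did A of 1 strain with C of the other (0.685 and 0.754). These correlations therefore do not show that letters pair the libraries. A block on the letter called 0 of 40. Alternatives were DESeq2 1.42.0, other scaling, filters and prior counts, 1 fit of all libraries, replicate blocks and leaving out libraries. The scripts were tested on simulated data.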

Additional observations from a re-analysis of the deposited data

Results flagged for a closer look

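In 4 of 42 tests of the 4-library groups, 1 library lay far from the others by Dixon's criterion at the 95% level, which chance meets in about 1 of 20 groups. Values are the gap to the nearest library as a share of the group's range. Those were COX5B in cup1F8* library 2 (0.832 of the range), RIP1 in H3A110Ccup1F8* library 2 (0.893), NDE1 in H3A110Ccup1F8* library 4 (0.913) and the mean log2 CPM of ATP synthase in H3A110Ccup1F8* library 2 (0.893).

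The effect of H3A110C differed between the cup1F8* background and WT, by the interaction term in edgeR, for 9 genes. The differences in log2 fold change were 0.49 for SDH1, 0.48 for SDH3, 0.45 for CYT1, 0.52 for RIP1, 0.45 for QCR6, 1.02 for CYC1, 1.45 for CYC7, 0.78 for NDI1 and 0.68 for NDE1. They were higher in the cup1F8* background in each case, and their cause was not tested. That of CYC7 rests on low levels, with 6.28, 1.51 and 2.19 CPM in H3A110C in SCEG. In 1 fit of all 26 libraries only CYC1 and NDE1 of these 9 passed.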

How the results depend on the processing

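DESeq2 called 10 genes higher and 1 lower in H3A110Cgsh1Δ against gsh1Δ, 1 lower in H3A110Ccup1F8* against cup1F8*, and 9 and 14 higher in the interactions with gsh1Δ and cup1F8*. One fit of all 26 libraries gave 2 lower in SCEG against SC in H3A110C, 1 higher in H3A110Cgsh1Δ, 2 higher in cup1F8*, 5 higher and 0 lower in H3A110Ccup1F8*, and 2 higher in the interaction with cup1F8*. Scaling by total counts gave 11 higher in cup1F8* against WT and 1 lower in H3A110Ccup1F8*, and complex differences of 2.14 (WT) and 2.05 (H3A110C) for ATP synthase between media, and of 0.30 (cytochrome oxidase), -0.0671 (ATP synthase) and -0.18 (NADH dehydrogenases) in cup1F8* against WT. The median over genes in place of the mean gave 1.83 for cytochrome oxidase between media in WT, -0.12 for it and 0.0492 for NADH dehydrogenases in H3A110C against WT in SCEG, -0.49 for ATP synthase and -1.003 for NADH dehydrogenases in gsh1Δ, 0.51 for bc1, 0.17 for cytochrome oxidase and 0.52 for NADH dehydrogenases in H3A110Cgsh1Δ, -0.55 for bc1, -0.0612 for ATP synthase and -0.89 for NADH dehydrogenases in cup1F8*, and 0.85 for NADH dehydrogenases in H3A110Ccup1F8*. The NADH dehydrogenase values in H3A110C, gsh1Δ and H3A110Cgsh1Δ changed sign, since 3 genes that moved apart make up that mean. The 150-base window held the element in 13 genes, and the medians in cup1F8* against WT were then -0.20 with it and -0.18 without.

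Leaving out 1 library gave 0 to 13 higher and 0 to 1 lower in H3A110Cgsh1Δ, 1 to 3 lower in H3A110Ccup1F8*, 0 to 7 higher in the interaction with gsh1Δ, 4 to 18 in that with cup1F8*, and -2.53 to 0.84 for CYC7 between media in WT.

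Replicate numbers did not pair the SCEG libraries throughout, with a lowest same-number correlation per comparison of -0.164 to 0.056. Between H3A110C and WT in SCEG, however, same-number correlations ran from 0.056 to 0.459, against a mean of -0.138 for other pairs. A replicate block gave 1 higher in H3A110Cgsh1Δ, 1 lower in H3A110Ccup1F8* and 2 higher in the interaction with gsh1Δ. No paired analysis was possible because SC columns carry letters and SCEG columns numbers, for comparisons between media.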
